A study of Arabidopsis thaliana with 4 samples.

Results

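The B-box group II genes are the 7 Arabidopsis thaliana genes BBX7 to BBX13, taken here by their locus identifiers out of 27444 protein-coding genes in the gene table. For each gene, every RVE5-MYC ChIP peak that overlapped the gene span with 3000 bp added on both sides was collected. This gave 11 of the 2367 deposited peaks: 5 in replicate 1, 3 in replicate 2 and 3 in replicate 3. All ChIP samples came from 14-day-old seedlings that overexpress RVE5 with a MYC tag, grown at 22 °C in days of 16 h light and 8 h dark. These seedlings were held at 29 °C for 12 h and collected at zeitgeber time 12 h, 12 h after lights on. Chromatin was precipitated with an anti-MYC antibody in 3 replicates, and 1 input library was made from the same kind of seedlings without antibody. No source used here names the promoter that drives RVE5-MYC, the number of transgenic lines, or whether the replicates were separate plants or one pool. With no untagged plants and no second temperature or time, the data locate signal in these seedlings and hold no contrast between conditions. RVE5 is a MYB-like factor related to CCA1 and LHY, the morning-phased proteins of the circadian clock.

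B-box proteins carry zinc-binding domains through which they contact other proteins. Those of group II have a pair of B-boxes, the second of which is divergent from that of CONSTANS, and a CCT domain at the other end, the type of domain by which CONSTANS reaches DNA. Members of the group are known as regulators of flowering time and of seedling development in light, and BBX7 and BBX8 also act in cold acclimation under blue light, downstream of the photoreceptor CRY2, the ubiquitin ligase subunit COP1 and the transcription factor HY5. Peaks below are printed with the TAIR10 coordinates that the authors deposited, and gene positions relative to them come from RefSeq gene models of TAIR10.1.

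The members fell into 3 patterns. BBX7, BBX8 and BBX13 had a peak in every replicate, and in each case the 3 peaks overlapped in a single region, called a shared region here. BBX11 and BBX12 had a peak in replicate 1 alone. BBX9 and BBX10 had no peak in any replicate. Thus 3 of 7 members (42.9%) lay within 3000 bp of a shared region, while 1.7% of all protein-coding genes did. A shared region overlapped the gene span itself, without added bases, at 2 of 7 members (BBX8 and BBX13), where 0.583% of all genes had one. Counting a peak of any list, the number was 5 of 7 members, beside 12.8% of all protein-coding genes. By list, replicate 1 had a peak at 5 members, where 5.59% of all genes had one, replicate 2 at 3 members, where 6.61% did, and replicate 3 at 3 members, where 7.02% did. Replicate 1, the shortest list with 676 peaks, therefore held the most peaks at these genes. Neighbouring genes can count the same region in these shares, so the genes are not independent of each other.

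**Figure D1:**
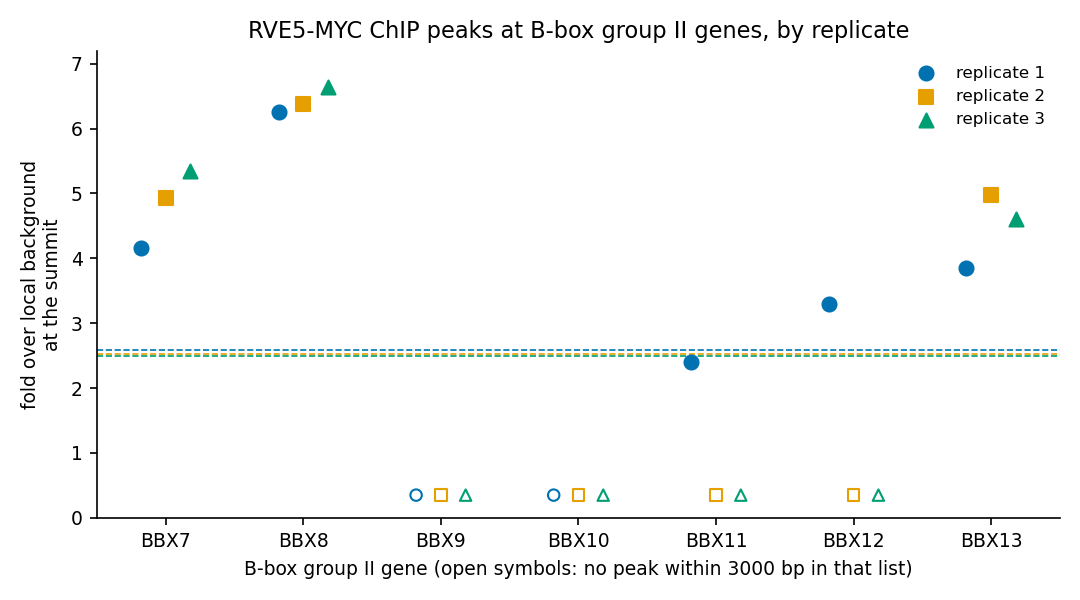
Fold over the local background at the peak summit (vertical axis, no unit) for each of the 7 B-box group II genes, with 1 filled symbol for each replicate that has a peak within 3000 bp, open symbols near the bottom where a list has none, and dashed lines at the median fold of each list. BBX8 lies highest in all 3 replicates, BBX7 and BBX13 lie between 3.85 and 5.34, BBX12 and BBX11 have a symbol for replicate 1 alone, and BBX9 and BBX10 have none.

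The strength of a peak is given by the authors' fold, the height of the reads stacked at the peak's summit (pileup) relative to a local background. How that background was estimated, and whether from the input, is not stated in the labels or headers. A fold belongs to its own list, so its rank within the list is printed beside it, and no test between lists was made. The lists held 676, 827 and 864 peaks in replicates 1, 2 and 3, with median folds of 2.58, 2.53 and 2.50 and lowest folds of 1.53, 1.61 and 1.53. Of 1674 merged regions, 199 were shared by all 3 lists.

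BBX8 (AT5G48250), the regulator of cold acclimation named above, had the highest fold of the group. Its shared region spanned 540 bp, chr5:19563716-19564255. The fold was 6.26 in replicate 1, 6.38 in replicate 2 and 6.65 in replicate 3, a mean of 6.43 ± 0.198 (SD, n = 3). It took rank 3 by fold in each of the 3 lists, so its place did not differ between replicates. Summit pileups of replicates 1, 2 and 3 reached 93, 100 and 109 reads, where the medians of the lists were 38, 39 and 40. The exact 95% Poisson intervals of these heights, which cover counting error only and take each unit of pileup as 1 independent read, were 75.1 to 114, 81.4 to 122 and 89.5 to 131 reads, and they overlapped. The −log10 of the authors' p-value was 44.3, 48.1 and 53.8. Ranked by that p-value the peak was at place 9, 8 and 9, and ranked by pileup at 11, 12 and 9. The summits lay beside the gene, within 200 bp of its end, in the interval between BBX8 and the neighbouring gene AT5G48270, and BBX8 was the nearer of both.

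Among the 199 shared regions, ordered by mean rank of the fold, the BBX8 region was at place 3. The regions at places 1 and 2 were that at the clock gene GI and one on chromosome 4 with AT4G06479 as its nearest protein-coding gene, more than 3000 bp away. The next regions below had RHL41 (ZAT12), GRP7 and AT5G29560 as nearest genes, the last of them also more than 3000 bp away. The fold at BBX8 also differed little between lists. Its SD was 3.08% of the mean, compared with a median of 9.36% over the shared regions, and 5.03% of them had a smaller relative SD. Relative counting error is smaller at pileups of 93 to 109 reads than at the list medians of 38 to 40. The comparison does not allow for this.

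BBX7 (AT3G07650), also called COL9, is known to delay flowering and to lower the transcripts of CONSTANS and FT. Its shared region, chr3:2440734-2441541, spanned 808 bp. The fold was 4.16 in replicate 1, 4.93 in replicate 2 and 5.34 in replicate 3, a mean of 4.81 ± 0.6002 (SD, n = 3). Replicate 1 was the lowest of these, by fold and by rank: the peak was at place 29 there, at 11 in replicate 2 and at 9 in replicate 3. The summit pileups were 70, 89 and 91 reads, with exact 95% Poisson intervals of 54.6 to 88.4, 71.5 to 110 and 73.3 to 112, which overlapped. Ranked by p-value the places were closer, at 20, 14 and 12. The summits lay outside the gene, between 200 and 500 bp from its nearer end. Of the peaks at the group, those of BBX7 were the widest, 595, 685 and 808 bp, where the median peak of the lists was 302, 282 and 293 bp.

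BBX13 (AT1G28050), also called COL15, is likewise known as a repressor of flowering. Its shared region, chr1:9777722-9778256, spanned 535 bp. The fold was 3.85 in replicate 1, 4.98 in replicate 2 and 4.61 in replicate 3, with a mean of 4.48 ± 0.575 (SD, n = 3). Replicate 1 was again the lowest, at rank 37 by fold, against 9 in replicate 2 and 17 in replicate 3. The summit pileups of 60, 76 and 73 reads had overlapping exact 95% Poisson intervals of 45.8 to 77.2, 59.9 to 95.1 and 57.2 to 91.8. All 3 summits lay inside the gene, within 100 bp of its end, so that the peaks straddled the gene boundary. At BBX7 and BBX13 the relative SD of the fold was 12.5% and 12.8%, above the median of the shared regions, and 69.8% and 73.9% of these had a smaller one. Replicate 1 had the lowest fold at all 3 members, but it was not the lowest list in general. Over the 199 shared regions the lowest fold was in replicate 1 in 64, replicate 2 in 63 and replicate 3 in 72. Those regions were mostly weaker than the members, with a median mean fold of 3.00. A low replicate 1 was also seen at other regions next to the members in mean rank. Named by nearest gene, it was lowest at GI, AT4G06479, AT5G29560, SMT1, AT5G43440, PDC2, GTE7 and DHS1. It was not lowest at RHL41, GRP7, FKF1, AGP15 and AT3G47160.

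**Figure D2:**
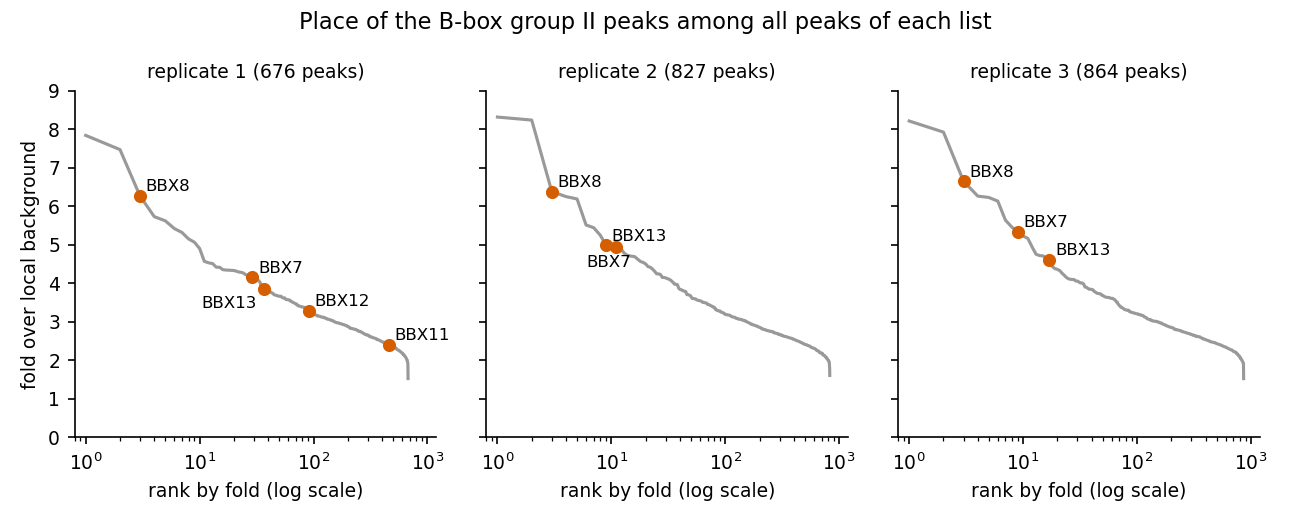
Fold (vertical axis, no unit) against rank by fold (horizontal axis, log scale) for all peaks of each list as a grey line, with the peaks at B-box group II genes as labelled points. BBX8 holds rank 3 in each list, BBX7 ranks 29, 11 and 9 and BBX13 ranks 37, 9 and 17 in replicates 1, 2 and 3, and BBX12 and BBX11 appear in replicate 1 at ranks 91 and 457.

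By fold, the order of the 3 members within a list was the same at the top and changed below it. BBX8 exceeded BBX7 by 2.10, 1.45 and 1.31 fold units in replicates 1, 2 and 3, and it exceeded BBX13 by 2.41, 1.398 and 2.04. These differences had the same sign in 3 of 3 lists and averaged 1.62 ± 0.424 and 1.95 ± 0.512 (SD, n = 3). BBX7 lay above BBX13 by 0.31 in replicate 1 and 0.73 in replicate 3 and below it in replicate 2, where the difference was -0.05. The mean of 0.33 was smaller than its SD of 0.39 (n = 3). By fold, BBX7 and BBX13 could therefore not be ordered beyond the spread between replicates. Ranked by p-value, BBX7 was ahead in each list, at 20, 14 and 12 in replicates 1, 2 and 3. BBX13 was at 43, 17 and 24. The pileup was also higher at BBX7 than at BBX13 in each list, but their exact Poisson intervals overlapped in each. The background that the fold implies, approximated as pileup divided by fold, was 14.9, 15.7 and 16.4 reads at BBX8 in replicates 1, 2 and 3. It was 16.8, 18.1 and 17.04 at BBX7 and 15.6, 15.3 and 15.8 at BBX13. The medians of the lists were 14.7, 15.5 and 15.998. These quotients are approximate, since no source used here says whether a constant was added before the fold was taken. The pileup at BBX8 was the highest of the 3 members in each list, with 93, 100 and 109 reads in replicates 1, 2 and 3. It was 70, 89 and 91 reads at BBX7 and 60, 76 and 73 at BBX13. In each list, however, the exact Poisson interval at BBX8 overlapped that of BBX7 and that of BBX13. Whether the heights differed beyond counting error was not tested. Compared with BBX7, the higher fold at BBX8 went with both a higher pileup and a lower implied background in each of the 3 lists. Compared with BBX13, the implied background at BBX8 was lower in replicate 1 and higher in replicates 2 and 3.

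In mean rank the BBX7 and BBX13 regions stood close together, at places 12 and 15 of the shared regions, with mean ranks of 16.3 and 21. The regions between them had PDC2 and GTE7 as their nearest genes. Directly above BBX7 came those of SMT1, FKF1 and AT5G43440, and directly below BBX13 those of AGP15, AT3G47160 and DHS1. This likeness is that of the mean rank over 3 lists and of nothing else. Ranks at this height moved between lists: over the 40 shared regions with the best mean rank, a number chosen after the values were seen, the median gap between a region's best and worst rank was 20.5 places. All 3 members with a shared region were among these 40, and 0.386% of all protein-coding genes lay within 3000 bp of 1 of the 40. By mean fold, 32 of the 199 shared regions reached 4, those at BBX7, BBX8 and BBX13 among them.

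**Figure D3:**
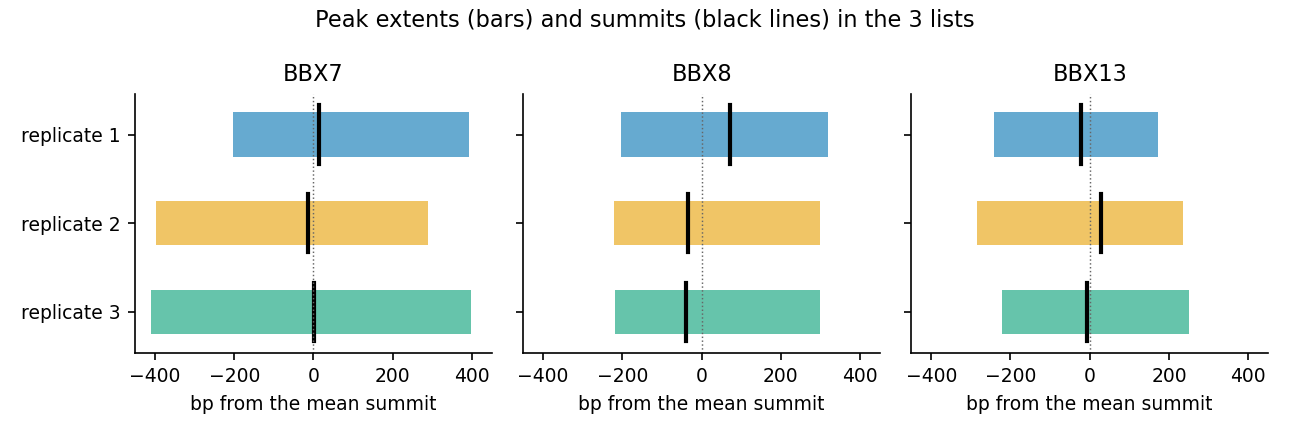
Extent of each peak (bars) and its summit (black lines) at BBX7, BBX8 and BBX13 in bp from the mean summit of the 3 lists, with 1 row for each replicate. Summits span 28 bp at BBX7 and 50 bp at BBX13; at BBX8 those of replicates 2 and 3 are 5 bp apart and that of replicate 1 stands off, so the span is 110 bp.

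The replicates placed the summits more closely at BBX7 and BBX13 than at BBX8. The summits of the 3 lists spanned 28 bp at BBX7 and 50 bp at BBX13, below the median of 75 bp over all shared regions (quartiles 43.5 and 153 bp). At BBX8, the member with the highest fold and the smallest relative SD of it, they spanned 110 bp, and 64.3% of the shared regions had a smaller span. Replicate 1 decided that value, since the summits of replicates 2 and 3 were 5 bp apart. The extents of the BBX8 peaks were nevertheless the most alike, with widths of 521, 519 and 515 bp. The stretch covered in all 3 lists was 500 bp or 92.6% of the region at BBX8, 394 bp or 73.6% at BBX13 and 491 bp or 60.8% at BBX7.

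BBX12 (AT2G33500) had its peak in replicate 1, chr2:14190083-14190349, with the summit inside the gene and within 100 bp of its end. The fold was 3.29, the pileup 49 reads (exact 95% Poisson interval 36.3 to 64.8) and the rank 91 of 676. This was a strong peak to be found in a single list: of the 100 peaks with the highest fold in replicate 1, 84 lay in shared regions and 5, this peak among them, were in no other list. BBX11 (AT2G47890), which is known to promote seedling development in light, had its peak at chr2:19607694-19607954 in replicate 1, beside the gene and within 200 bp of its end. The fold of 2.40 was under the median of that list, the pileup was 33 reads (22.7 to 46.3) and the rank was 457. The lists give no value where no peak was called, so the signal at BBX11 and BBX12 in replicates 2 and 3 is unknown and a difference between replicates was not tested.

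BBX9 (AT4G15250) and BBX10 (AT3G21880), of which BBX10 is known as a repressor of flowering that binds COP1, had no peak within 3000 bp. Each has a B-box gene of group V as a direct neighbour, BBX30 beside BBX9 and BBX31 beside BBX10. BBX30 and BBX31 encode microProteins, short proteins with a B-box that bind CONSTANS. No list had a peak within 3000 bp of BBX30 either, and the peak nearest to BBX9 was between 40 and 41 kb away. Beyond BBX31 lay a shared region, chr3:7711795-7712138, with folds of 3.03, 2.42 and 2.65 in replicates 1, 2 and 3, a mean of 2.70 ± 0.311 (SD, n = 3). It was between 3 and 4 kb from BBX10, outside the window, and BBX31 was its nearest protein-coding gene.

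Within the windows, the peaks at the group lay near gene ends. The window itself limits how far a peak can be from the gene, and the 11 summits come from 5 regions. At each of the 5 members with a peak there was 1 region and no more, and all 11 summits lay within 500 bp of an end of the member's span although the window reached 3000 bp. For all 11 the member was the nearest protein-coding gene. Of these summits 4 were inside the gene and the others beside it. Summits near gene ends were common in these data, also without such a window: 66.9%, 66% and 66.7% of all peaks in replicates 1, 2 and 3 lay within 500 bp of an end of a protein-coding gene, and in 65.8% of the shared regions all 3 summits did. The gene table gives no strand, so whether an end is the start of transcription is not stated here.

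Of the other 25 B-box genes, 3 lay within 3000 bp of a shared region (12%), again beside 1.7% of all protein-coding genes. None of the 6 genes of group I, which holds CONSTANS, and none of the 4 of group III was among them. BBX22 (LZF1) of group IV, which promotes seedling development in light, had folds of 4.20, 4.11 and 3.85 in replicates 1, 2 and 3. BBX28 of group V, known to inhibit HY5, had 2.99, 2.74 and 3.59, and BBX31, described above, was the third. The highest of these means, 4.05 ± 0.182 at BBX22, lay below those of BBX7, BBX8 and BBX13 (SD, n = 3). This order did not hold in every list. In replicate 1 the fold of 4.20 at BBX22 was above the 4.16 of BBX7 and the 3.85 of BBX13. BBX8 alone lay above BBX22 in all 3 lists. With regions of at least 2 replicates, where 4.25% of all genes were counted, the group II count was still 3 of 7 and that of the others 5 of 25. Group V then also had 3 of 7, BBX28, BBX29 and BBX31, the same share as group II, while group IV had 2 of 8. The genes added to the 3 with a shared region were BBX24, a repressor in light signalling, with folds of 2.19 in replicate 2 and 3.25 in replicate 3, and BBX29, with 3.26 in replicate 1 and 3.54 in replicate 2. Within 1000 bp, where 0.987% of all genes lay near a shared region, the counts were 3 of 7 in group II and 2 of 25 in the others. The difference between the groups of the family was not tested.

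**Figure D4:**
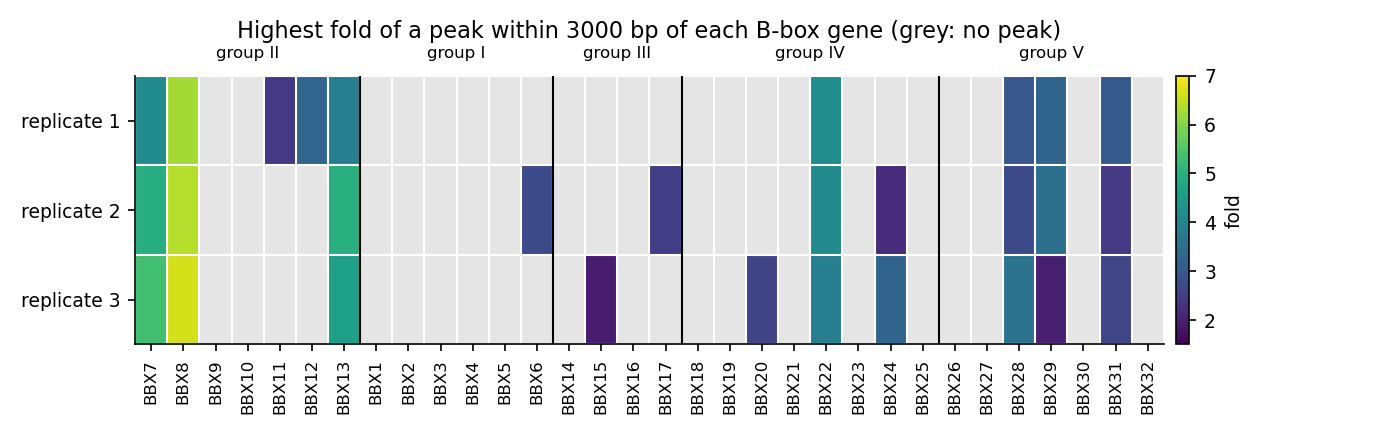
Highest fold of a peak within 3000 bp (colour scale, no unit) for the 32 B-box genes in columns, ordered by group with group II at the left, and the 3 replicates in rows; grey cells have no peak. BBX7, BBX8 and BBX13 are coloured in all rows, as are BBX22, BBX28, BBX29 and BBX31; at BBX29 the peak of replicate 3 lies in a separate region.

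A list of 12 genes that act with group II proteins in flowering, light or cold signalling was read in the same way. Of these, 7 had a peak of any list within 3000 bp, beside 12.8% of all protein-coding genes. With regions of at least 2 replicates the count was 5, beside 4.25%. CONSTANS and its florigen targets FT and TSF had no peak within 3000 bp in any list, nor had COP1 and HY5. CRY2 had a peak in replicate 1, with a fold of 3.00, and the COP1 partner SPA1 in replicate 2, with 2.91. SOC1, an integrator of flowering signals, had overlapping peaks in replicates 1 and 3, with folds of 3.11 and 3.09, and a separate one in replicate 2, with 3.04. The photoreceptor gene PHYB had overlapping peaks in replicates 1 and 3, with 2.93 and 3.11. A shared region lay within 3000 bp of 3 of the 12 genes (25%), beside 1.7% of all protein-coding genes. They were the cold regulators CBF1, CBF2 and CBF3, which are neighbours and share regions. The folds at the strongest of these, inside CBF3, were 4.24, 4.24 and 3.87 in replicates 1, 2 and 3. Its mean of 4.12 ± 0.214 (SD, n = 3) was lower than the means at BBX7, BBX8 and BBX13. In replicate 1, however, its fold was above the 4.16 of BBX7 and the 3.85 of BBX13. BBX8 alone was above it in all 3 lists.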

How the data were processed

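The submitters' processing notes name the genome build TAIR10 and CASAVA 1.4. No source used here names the aligner or the peak caller, or says how the input entered. The authors deposited 1 peak list per ChIP replicate, and no list of the input was used here. Per the file headers, each list gives position, width, summit, the pileup at the summit (a signal), the fold over local background (a ratio) and the −log10 of a p-value and of a q-value. Library totals are unknown here, so the depth behind a value is the pileup itself.

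Peaks of the 3 lists were merged where they shared at least 1 bp. Genes and symbols came from a table of RefSeq genes (TAIR10.1). The table used here has no strand column, and no gene coordinates are printed. The table held the B-box names of 31 of the 32 genes, and BBX11 was matched by locus. Where a region held several peaks of 1 list, the one with the highest fold was used. The code that merges peaks and counts genes was checked on simulated peaks with known positions; no test of the gene counts themselves was made. Python 3.11.15 and pandas 2.3.3 were used. The members, gene lists and alternatives were chosen with earlier results of these data known. The genes named are the members, other B-box and partner genes with a region of at least 2 replicates, and the genes nearest to the 3 shared regions above and below each member in mean rank; BBX30, CRY2, SPA1, AT5G48270 and the genes with no peak are named beyond that rule. Planned motif searches were not run, since no sequence was used here.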

Additional observations from a re-analysis of the deposited data

How the results depend on the processing

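The count of 3 members with a shared region was recomputed under 11 alternatives and stayed within 1.5 times in 10. That band takes in a fall from 3 to 2. It was 3 (BBX7, BBX8 and BBX13) without each replicate, with regions of at least 2 replicates, within 1000 bp, with each list limited to its better 50% by p-value, with overlap of 50% of the shorter peak and with the nearest gene only. It was 2 without flank, which lost BBX7, and 2 with summits within 100 bp, which lost BBX8, and 5 with peaks of any list. Leaving out a list, or taking regions of at least 2 replicates or of any list, asks for fewer peaks and could not lose these genes. The other B-box genes numbered 5 with regions of at least 2 replicates and 9 with any list. Of all protein-coding genes, 467 were counted, against 670 to 722 with 1 replicate left out, 1166 with at least 2, 3503 with any, 271 within 1000 bp, 160 without flank, 295 with summits within 100 bp and 185 with the nearest gene only. Mean folds with 1 replicate left out were 6.32 to 6.51 at BBX8, 4.54 to 5.13 at BBX7 and 4.23 to 4.79 at BBX13. Summit spans then were 5 to 110 bp at BBX8, 13 to 28 bp at BBX7 and 15 to 50 bp at BBX13, and between peak centres 20 bp at BBX8 and 149 bp at BBX7. The mean rank of BBX8 was 3 by fold, 8.67 by p-value and 10.7 by pileup. What caused these shifts was not tested. No paired analysis was possible because the input library has no peak list here. Pileups of 33 to 109 reads at the members limit the precision of a single fold.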
